A study of Homo sapiens with 4 samples.

Results

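PPARG sites found in both NCI-H1993 and NCI-H2347 are the peaks of the NCI-H1993 list that overlap a peak of the NCI-H2347 list by at least 1 bp, with both peaks at most 2500 bp wide and on assembled chromosomes. The members were chosen by measured values, the start and end of each called peak, and so by the overlap and width of the calls. There were 477 such sites among the 1419 peaks of NCI-H1993, and they overlapped 475 of the 2225 peaks of NCI-H2347, out of 3644 peaks in all. The data come from chromatin immunoprecipitation followed by sequencing (ChIP-seq) in a pair of established human lung adenocarcinoma lines, with 1 ChIP library and 1 input library per line. Both lines, NCI-H1993 and NCI-H2347, carried PPARG-LAP, a PPARG transgene on a bacterial artificial chromosome (BAC) whose tag contains EGFP, and a polyclonal goat anti-EGFP antibody pulled down the fusion protein after fixation with formaldehyde. Both grew in RPMI-1640 medium with serum, the treatment label reads as not applicable, and the letters PIO in the names of both lists are not explained there. What was mapped is therefore the tagged protein made from an added BAC copy, in 1 ChIP sample per line. The 2 inputs, chromatin taken without precipitation, were not used here.

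PPARG is a nuclear receptor that binds DNA as a heterodimer with a retinoid X receptor, typically at a direct repeat of the AGGTCA half-site with 1 base between them. Fatty acids and the thiazolidinedione drugs activate it. It is best known as the driver of fat cell formation, where it switches on genes for fatty acid uptake, lipid storage and fuel choice, and in the lung it is found in alveolar macrophages and in epithelial cells. Sequence and gene positions on hg19, the build of the lists, were not used here, so the sites are given by position and not by motif or gene.

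The shared sites made up 33.6% of the NCI-H1993 list (95% Wilson interval 31.2% to 36.1%), and their partners made up 21.3% of the NCI-H2347 list (19.7% to 23.1%). Among peaks that met the width and chromosome limits the shares were 34.4% of 1388 and 21.4% of 2216. Such intervals describe counting error alone. With a single ChIP library for each line, no difference here has a replicate check and no p-value is given. The depth of the libraries is unknown from peak lists. The score is the authors' own value per peak, with its lowest value at 50.03 in NCI-H1993 and at 50.05 in NCI-H2347. Scores and widths come from the same peak calls that chose the sites, and they are described without a test.

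The sites were ordered by the lower of their 2 score percentiles, each taken within its own list with 100 as the top. First came a site on chromosome 7 whose NCI-H1993 peak, from 95237562 to 95238949, scored 610.5 at rank 3. Its NCI-H2347 peak, from 95237551 to 95238709, scored 410.1 at rank 20. The interval common to both peaks was 1148 bp long, from 95237562 to 95238709, and covered 82.7% of the wider peak. Second was chromosome 10 from 73099497 to 73100645, which scored 233 at rank 21 in NCI-H1993 and 362 at rank 35 in NCI-H2347. It was a strong call in both lists, and its peaks coincided closely, with a common interval of 1073 bp and midpoints 61.5 bp apart.

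The third was on chromosome 9 from 110517332 to 110518175, which scored 223 at rank 24 in NCI-H1993 and 378 at rank 28 in NCI-H2347. On chromosome 1, the site from 64128566 to 64129268 scored 375 at rank 4 in NCI-H1993 and 342 at rank 40 in NCI-H2347. Its NCI-H1993 peak of 703 bp lay wholly inside an NCI-H2347 peak of 1346 bp, so the common interval was 52.2% of the wider peak, the lowest share of the 10 sites described here. Another on chromosome 1, from 153324557 to 153325801, scored 244 at rank 15 in NCI-H1993 and 337 at rank 42 in NCI-H2347. Also there, the site from 204140576 to 204141671 had the best NCI-H2347 rank of the 10, rank 6 at a score of 498, and scored 217 at rank 28 in NCI-H1993.

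Of the 10, the closest match of extent was on chromosome 20 from 50366358 to 50367455. Its NCI-H1993 peak lay wholly inside the NCI-H2347 peak, the common interval was 98.1% of the wider peak, and the midpoints were 7.5 bp apart. It scored 210.5 (rank 35) in NCI-H1993 and 429.5 (rank 17) in NCI-H2347. Chromosome 1 from 167411033 to 167411816 followed with scores of 210.1 and 454, at ranks 36 and 13. On chromosome 6, 47156017 to 47156805 had scores of 264 and 308, at ranks 11 and 56. The tenth site, on chromosome 19 from 50268598 to 50269555, scored 716 at rank 1 in NCI-H1993 and 296 at rank 63 in NCI-H2347. Of the 10 sites, 7 had midpoints within 100 bp of each other in the 2 lines. Over all shared sites it was 301 of 477 (63.1%), a similar share.

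**Figure D1:**
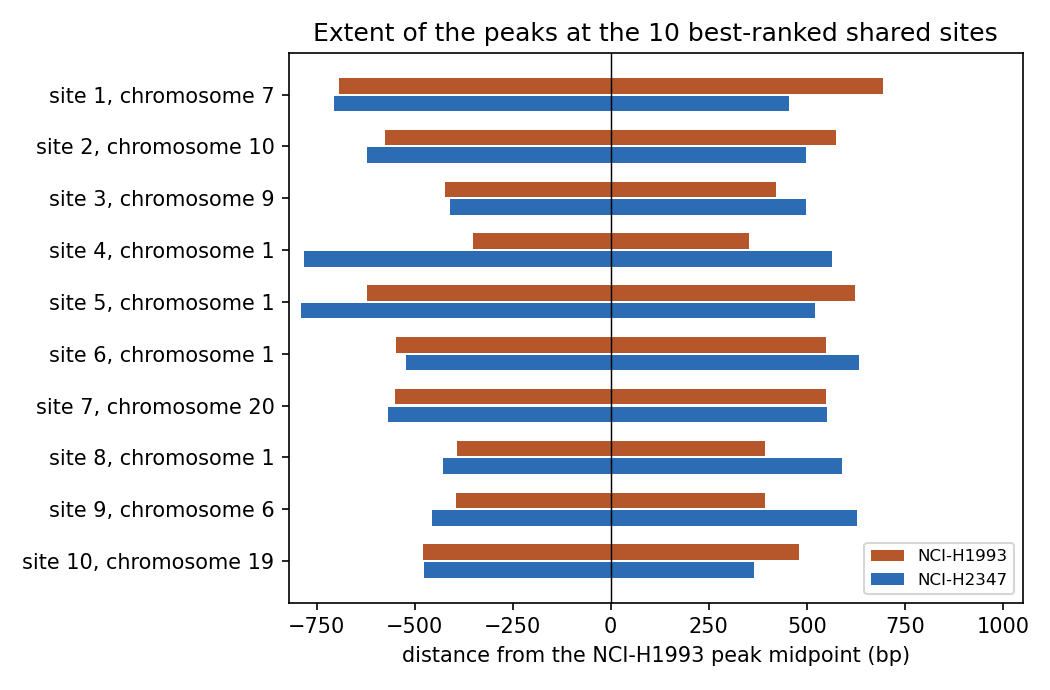
Extent of the NCI-H1993 and NCI-H2347 peaks at the 10 shared sites with the best lower score percentile, drawn as bars along the distance in bp from the NCI-H1993 midpoint. All 10 pairs cover the zero line, and the site on chromosome 1 at the fourth place has the largest difference in width, 703 bp against 1346 bp.

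Many of the strongest calls of each list were shared. Of the 10 highest-scoring peaks of NCI-H1993, 8 were shared, as were 5 of the 10 highest of NCI-H2347, where 1 more was outside the limits. Among the best 100 peaks the numbers were 67 in NCI-H1993 (67%, Wilson interval 57.3% to 75.4%) and 57 in NCI-H2347 (57%, 47.2% to 66.3%). Among the best 200 they were 118 (59%, 52.1% to 65.6%) and 109 (54.5%, 47.6% to 61.3%). Over the whole lists the shares were 33.6% in NCI-H1993 and 21.3% in NCI-H2347. The sites still ran down to the bottom of both lists, with NCI-H1993 scores of 50.04 to 716 and NCI-H2347 scores of 50.15 to 577.

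Scores reached 100 or more in both lines at 127 of the 477 sites (26.6%, Wilson interval 22.9% to 30.8%). Another 149 reached 100 in NCI-H2347 alone, 56 in NCI-H1993 alone and 145 in neither. In all, 183 sites (38.4%) scored at least 100 in NCI-H1993, where the share over the whole list was 23.8%, and 276 (57.9%) did so in NCI-H2347, where it was 33% of the list. The counts per line cannot be compared with each other, since the scores of the 2 lists are not known to be on a common scale. Sites that scored under 100 in both lines made up 30.4% of the shared set.

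Among the shared sites, high scores in one line went only weakly with high scores in the other. Peaks listed in one line alone have no second score and are left out of this comparison. Over the 477 sites, the score percentiles within each list had a Spearman rho of 0.21, as a description across sites that share their 2 libraries. Sites above percentile 75 of the NCI-H1993 list numbered 187 and had a median NCI-H2347 score of 147 (quartiles 83.8 and 227). The 64 sites up to percentile 25 of NCI-H1993 had a median NCI-H2347 score of 96.5 (67.1 and 143), and the 2 bins between had medians of 98.0 and 105. The 2 ranges overlapped almost fully, from 50.15 to 498 for the upper and from 50.18 to 577 for the lower sites. In the other direction, the 239 sites above percentile 75 of NCI-H2347 had a median NCI-H1993 score of 98.0 (67.8 and 145). The median was 84.4 for the 54 sites up to its percentile 25, 74.8 for the 85 from there to percentile 50 and 83.2 for the 99 from there to percentile 75, so it did not rise steadily. The shared site with the highest NCI-H2347 score, 577 at rank 4, lay on chromosome 3 from 43496642 to 43497286 and scored 55.5 at rank 1124 in NCI-H1993, among the lowest 25% of that list.

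**Figure D2:**
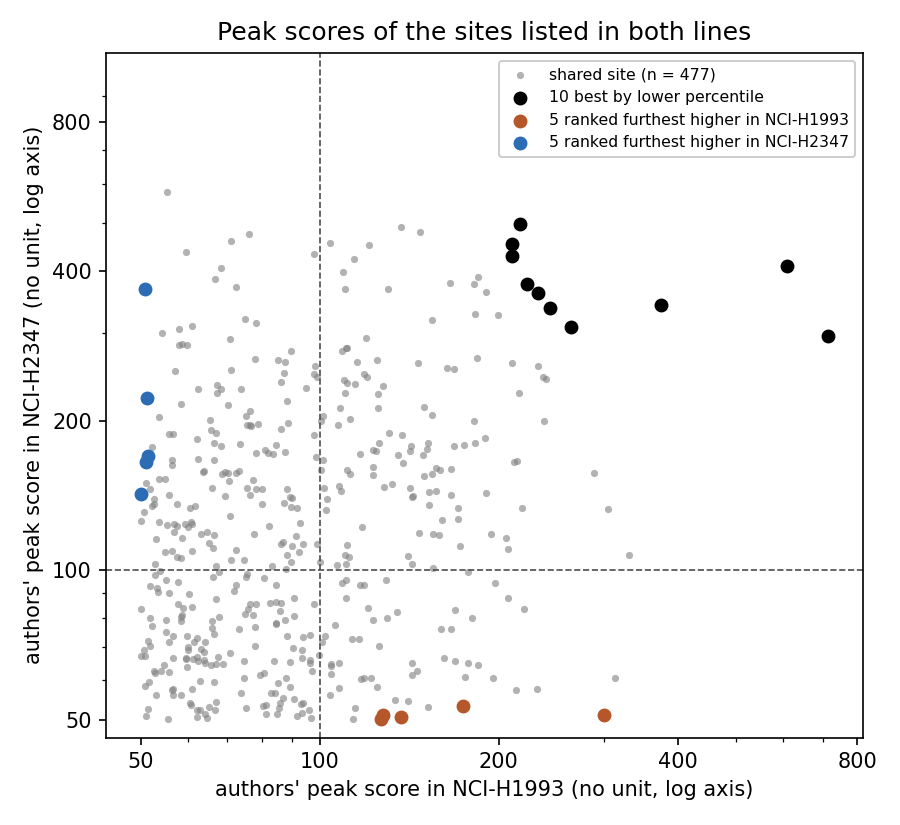
Authors' peak score of each of the 477 shared sites in NCI-H1993 (x, log axis) and NCI-H2347 (y, log axis), with dashed lines at a score of 100. The upper right field holds 127 sites, the upper left 149, the lower right 56 and the lower left 145. Black points are the 10 sites with the best lower percentile. Coloured points are the 5 sites with the largest percentile excess in each line, and all other sites are grey.

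Some shared sites ranked far higher in one line than in the other, where they barely passed. For the 5 with the largest excess in NCI-H1993, the ranks there ran from 9 to 192 of 1419. For the 5 with the largest excess in NCI-H2347, they ran from 32 to 401 of 2225. The largest excess of rank in NCI-H1993 was at chromosome 1 from 94224234 to 94225191, which scored 301 at rank 9 in NCI-H1993 and 51.04 at rank 2134 in NCI-H2347. The midpoints were 2 bp apart there. A site on chromosome 16 from 68955287 to 68956128 scored 137 against 50.5 in the same order, and one on chromosome 12 from 118739843 to 118740615 had scores of 127 and 50.15. On chromosome 22, the site from 41128334 to 41129032 scored 174 and 53.2. The fifth was on chromosome 17 from 57374260 to 57375177, with scores of 128 and 51.0.

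In the opposite direction, the largest excess in NCI-H2347 was on chromosome 17 from 25878594 to 25879191, which scored 50.95 at rank 1373 in NCI-H1993. Its NCI-H2347 peak, from 25878631 to 25880381, scored 369 at rank 32. That wide peak also covered a second NCI-H1993 peak, from 25879382 to 25880436 that scored 130.1, so a stronger NCI-H1993 call lay under the same NCI-H2347 peak. On chromosome 1, the site from 156521632 to 156522404 scored 51.3 in NCI-H1993 and 222 in NCI-H2347, and the site from 211821553 to 211822139 scored 51.5 and 170.03. On chromosome 17, the site from 27482144 to 27482738 scored 51.2 and 165. Chromosome 2 from 85580951 to 85581675 scored 50.07 and 142. At each of these 10 sites the weaker score lay between 50.07 and 53.2, next to the lowest scores deposited. The choice by largest difference in percentile favours such low values, so they are no separate result.

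The absolute distance between midpoints had a median of 75.5 bp (quartiles 32.5 and 131 bp), and 301 sites (63.1%) had midpoints within 100 bp. At 93.9% of the sites it was within 250 bp, and at 0.839% (4 sites) over 500 bp. The rule requires an overlap and so bounds this distance, which is given as a description. Each midpoint lay inside the other line's peak at 465 sites (97.5%). The signed offset, NCI-H2347 minus NCI-H1993, had a median of -8 bp, with 220 sites displaced to higher and 257 to lower coordinates.

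With the sites ordered by their lower score percentile and cut into 3 equal parts of 159, the median distance was 82.5 bp in the weakest, 64 bp in the middle and 75 bp in the strongest. Sites that scored 100 or more in each line had a median of 74 bp, and those under 100 in both had 71 bp.

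**Figure D3:**
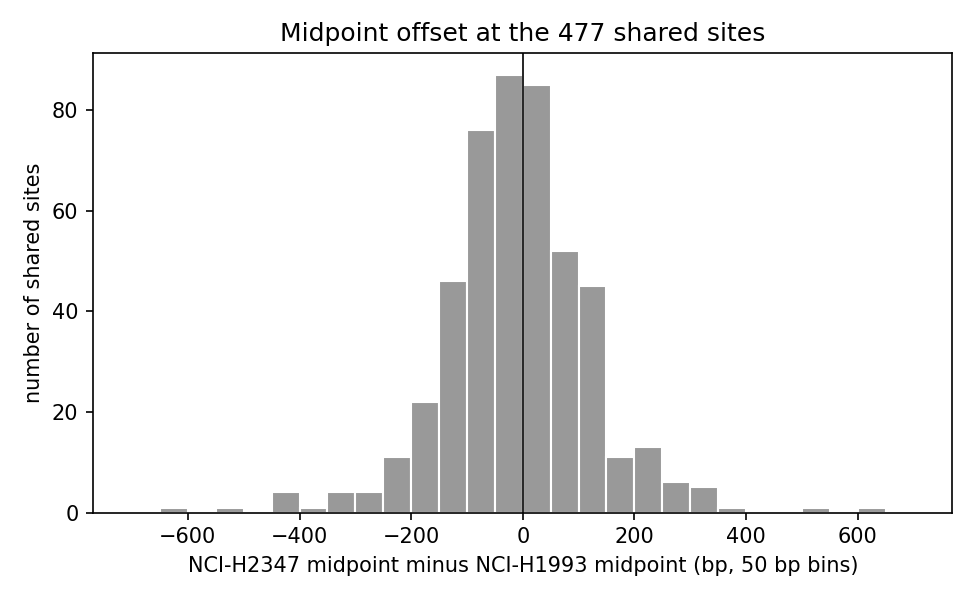
Number of shared sites by the difference between the NCI-H2347 and the NCI-H1993 midpoint, in bins of 50 bp. The distribution is centred near 0, with a median of -8 bp, and 4 sites lie over 500 bp from it.

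The overlap covered a median of 74.7% of the wider peak (quartiles 64.3% and 83.7%), and 444 sites (93.1%) had an overlap of at least 50% of both peaks. The common interval had a median length of 681 bp and ran from 92 to 1850 bp. The NCI-H2347 peak was the wider one at 327 sites (68.6%), with a median difference in width of 125 bp. NCI-H2347 peaks were also the wider ones over the whole lists, with medians of 832 bp against 731 bp for all peaks and 813 bp against 700 bp for the unshared peaks within the limits. At 214 sites (44.9%) the NCI-H1993 peak lay wholly within the NCI-H2347 peak, and at 70 sites (14.7%) the reverse held. Widths in the 2 lines had a rho of 0.29 across the 477 sites, again as a description. Within the NCI-H2347 list score and width went together, with a rho of 0.50 for shared sites and 0.47 for the 1741 unshared peaks within the limits. In NCI-H1993 these values were 0.36 and 0.30.

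No NCI-H1993 site had more than 1 partner, and 2 NCI-H2347 peaks were each the partner of 2 sites. One is the peak on chromosome 17 described above. The other, on chromosome 11 from 10921152 to 10922659 (score 156), covered NCI-H1993 peaks from 10921340 to 10921874 (score 112) and from 10921901 to 10922528 (score 68.6). At both places a single broad call in NCI-H2347 was split in NCI-H1993.

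Shared sites occurred on the 22 autosomes and X. Chromosome 2 held the most, 50 sites, followed by chromosome 1 with 47. As shares of the peaks within the limits, these were 42.0% in NCI-H1993 and 25.9% in NCI-H2347 on chromosome 2. The shares on chromosome 1 were 32.2% and 18.0%, under the 34.4% and 21.4% of the whole lists. On chromosome X, 3 of 26 NCI-H1993 peaks (11.5%, Wilson interval 4.00% to 29.0%) and 3 of 45 NCI-H2347 peaks (6.67%, 2.29% to 17.9%) were shared, below the 34.4% and 21.4% of the whole lists. The 3 sites there were at 45339237 to 45339915, at 45366202 to 45366761 and at 134082519 to 134083235. The middle one had scores of 155 and 101, while the other 2 had 50.13 and 56.4 in NCI-H1993.

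Chromosome 22 had the largest shared portion in NCI-H1993, 12 of 23 peaks (52.2%, Wilson interval 33.0% to 70.8%). In NCI-H2347 the largest portions were on chromosome 18, with 11 of 26 (42.3%, 25.5% to 61.1%), and chromosome 19, with 19 of 50 (38%, 25.9% to 51.8%). Both intervals lie above the 21.4% of the list, as does that of chromosome 20, with 20 of 62 (32.3%, 22.0% to 44.6%). In NCI-H1993 the shares of chromosomes 18 and 19 were 35.5% and 38.8%, against 34.4% of the list. Chromosomes 11 and 17 showed the widest gap between the lines. On chromosome 11, 42.3% of the NCI-H1993 peaks and 15.6% of the NCI-H2347 peaks were shared, and on chromosome 17 the values were 42.9% and 17.3%. NCI-H2347 had 135 and 150 peaks within the limits on these chromosomes, against 52 and 63 in NCI-H1993. The 23 chromosomes were described and not tested, and those named here are the extremes, picked after all values were seen.

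**Figure D4:**
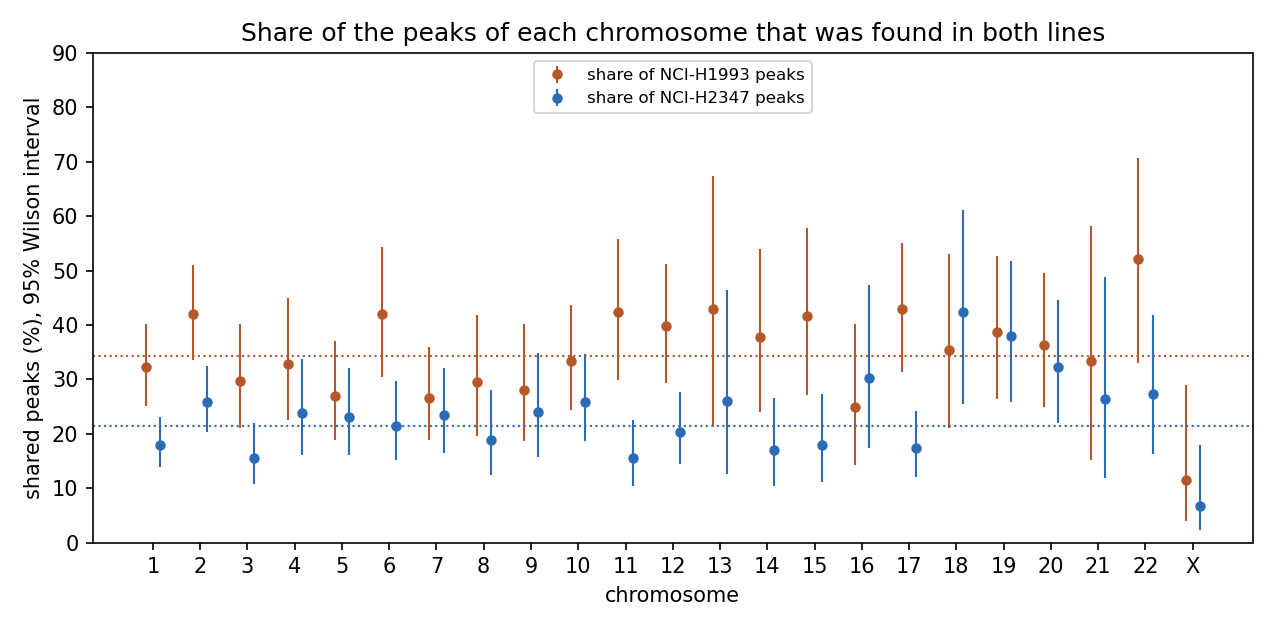
Share of the peaks within the limits on each chromosome that was found in both lines, in percent with 95% Wilson intervals, for NCI-H1993 and NCI-H2347. Dotted lines mark the shares over all chromosomes, 34.4% and 21.4%, and chromosome X lies lowest in both lists.

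Most shared sites had no other shared site close by. The median distance from one site to the next was 2577400 bp, and 407 of the 477 sites had no other within 100 kb. The remaining 70 formed 27 pairs and 5 groups of 3 or more. These figures have no counterpart here for the unshared peaks, so they do not set the shared sites apart. Another shared site lay within 10 kb of 18 sites (3.77%). A peak of either list outside the shared set, with peaks beyond the limits included, lay within 10 kb of 66 (13.8%, Wilson interval 11.03% to 17.2%). It was an NCI-H2347 peak for 46 and an NCI-H1993 peak for 21. Another peak of the same list lay within 10 kb of 8.18% of the shared NCI-H1993 peaks (interval 6.04% to 10.98%). For the unshared NCI-H1993 peaks within the limits it was 6.81% (5.35% to 8.63%). In NCI-H2347 it was 11.4% of the shared and 14.8% of the unshared peaks within the limits (8.82% to 14.5% and 13.2% to 16.5%). These shares of peaks were not tested against each other.

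The fullest group was on chromosome 17, with 4 sites between 57833393 and 57931475, a span of 98083 bp. Their NCI-H1993 scores were 65.4, 62.2, 60.95 and 138, and their NCI-H2347 scores were 200.2, 184, 310.3 and 164. The first 3 were thus modest calls in NCI-H1993 and strong ones in NCI-H2347, and the fourth ranked alike in both, at 160 and 301. On chromosome 12, 3 sites lay between 76347519 and 76415330, with NCI-H1993 scores of 98, 125 and 60.2 and NCI-H2347 scores of 248, 265 and 122. There the same site, the middle one, was the highest in both lines and the same site was the lowest.

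On chromosome 20, the 3 sites between 52239793 and 52403973 had NCI-H1993 scores of 62.9, 125 and 220.3 and NCI-H2347 scores of 59.7, 227 and 83.5. The lines differed in which site stood highest, the third in NCI-H1993 and the middle one in NCI-H2347. On chromosome 6, the sites between 37072256 and 37105740 had NCI-H1993 scores of 108, 68.9 and 52.6 and NCI-H2347 scores of 212, 64.6 and 139, with the first the highest in both. The group on chromosome 22 between 36729614 and 36815878 had NCI-H1993 scores of 63.2, 59.4 and 75.3 and NCI-H2347 scores of 69.4, 124 and 96.8, with the third highest in the former and the middle one in the latter.

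**Figure D5:**
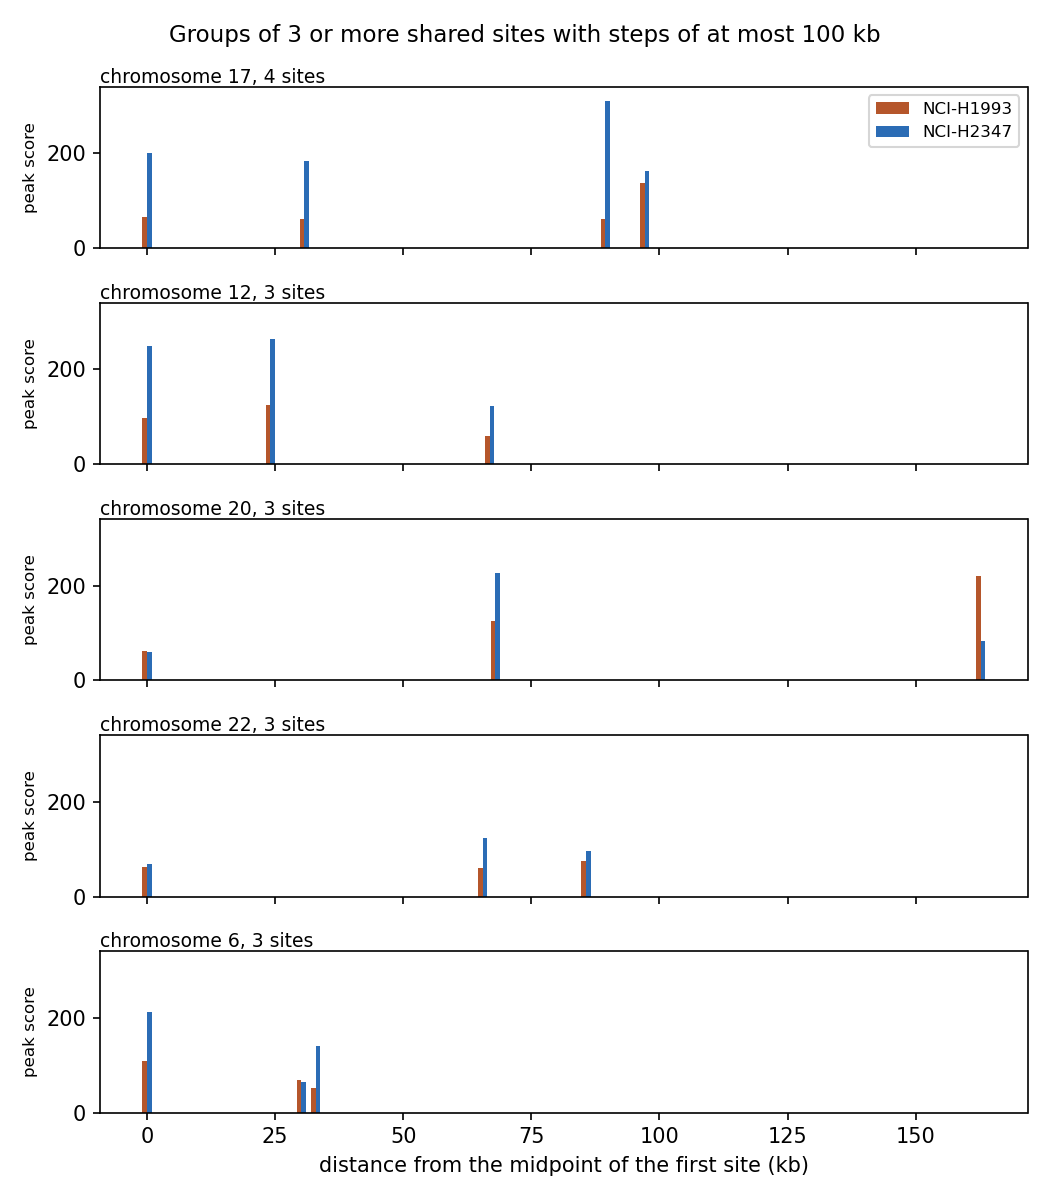
Authors' peak scores in NCI-H1993 and NCI-H2347 (bars, from 0) of the sites in the 5 groups of 3 or more shared sites, along the distance in kb from the first site. The first 3 of the 4 sites on chromosome 17 have NCI-H1993 scores of 60.95 to 65.4 and NCI-H2347 scores of 184 to 310.3.

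At the edge of the rule, the smallest overlap was 92 bp, on chromosome 1 between an NCI-H1993 peak from 19337079 to 19337649 (score 52.8) and an NCI-H2347 peak from 19337558 to 19338211 (score 61.96). The next smallest were 319 bp on chromosome 17 from 72964646 and 333 bp on chromosome 11 from 102112967. Just outside it, an NCI-H1993 peak on chromosome 17 from 73994164 to 73995201 (score 187) missed an NCI-H2347 peak from 73992570 to 73994110 (score 437) by 53 bp, and that peak was already the partner of the shared site from 73992737 to 73993324, which scored 59.6 in NCI-H1993. An NCI-H1993 peak on the same chromosome from 57373364 to 57374232 missed by 99 bp, and the NCI-H2347 peak beside it was already the partner of the site from 57374260. A gap of 112 bp separated weak calls of 52.3 and 52.4 on chromosome 9 from 33329780. In all, 6 unshared NCI-H1993 peaks lay within 500 bp of an NCI-H2347 peak and 54 within 10000 bp.

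The limit on width removed 9 overlapping NCI-H1993 peaks, and 486 would have been shared without it. Closest to the limit was a pair on chromosome 7 from 105856521, 2662 bp wide in NCI-H1993, with scores of 115 and 148. The top call of NCI-H2347 (score 1002), which spanned 178505622 to 178509163 of chromosome 1, was 3542 bp wide and fell outside for that reason, together with the 2 NCI-H1993 peaks under it, which scored 132 and 75.5. On chromosome 3 an NCI-H1993 peak from 12483898 to 12488432 and an NCI-H2347 peak from 12482638 to 12488264 were wide in both lists, with scores of 62.9 and 70.4. Of the 3 widest sites inside the limit, those on chromosome 4 from 49648403 to 49650318 and on chromosome 11 from 51571865 to 51573989 lay 5808 bp and 3404 bp from a peak over the limit. Their scores in NCI-H1993 and NCI-H2347 were 50.2 and 67.1 on chromosome 4 and 73.9 and 56.5 on chromosome 11. Within 100 kb of such a wide peak there were 5 shared sites in all.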

How the data were processed

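Peak lists of the PPARG ChIP libraries of NCI-H1993 and NCI-H2347 were used, 1 library per line. Per the submitters' processing notes they were made with MACS 1.4.2 on hg19. Aligner, read filters, threshold and use of the input: not given in the sources used here. Column 5, the score, is deposited by the authors for each peak. It was used as a value and, within its own list, as a rank and a percentile (100 for the highest score). The same cut of 100 was applied to the values of both lists, which are not known to be on a common scale. Starts were converted to 1-based positions.

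Sites were taken by the rule stated at the opening, and the partner was the overlapping NCI-H2347 peak with the longest overlap. No statistical test was made. Shares carry 95% Wilson intervals. The members, the lists and the rules for naming were chosen with earlier results of these data known. Named were the 10 sites with the best lower percentile over both lists, the 5 with the largest percentile excess in each line, the sites and pairs nearest the edges of the rule, and groups of at least 3 sites with steps of at most 100 kb. The split peaks, the chromosome 3 site with the highest NCI-H2347 score, the sites of chromosome X, the pair on chromosome 3, the pair on chromosome 1 under the top NCI-H2347 peak and sites beside wide peaks were picked for mention once their values were known. The planned motif search and gene annotation need hg19 sequence and gene positions, which were not used here. The overlap code was tested on simulated lists. The software was pandas 2.3.3 and numpy 2.4.6 under Python 3.11.15, with scipy 1.17.1 for intervals and matplotlib 3.10.9 for plots.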

Additional observations from a re-analysis of the deposited data

How the results depend on the processing

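The number of shared sites stayed between 383 and 486 under 7 of 8 alternatives and was 127 when both lists were limited to scores of at least 100, where fewer peaks were compared. The rho between score percentiles ranged from 0.20 to 0.28 under 7 of 8 and was 0.14 with that limit, over 127 sites. The number of sites that scored 100 or more in both lines was 120 to 129, and the median midpoint distance 72.5 to 76 bp. Leaving out sites within 3 Mb of the longest peak-free stretch of their chromosome (445 sites left) or within 100 kb of a peak wider than 2500 bp (472 left) was chosen after seeing the data. The alternatives for motifs and transcription starts were not run. No paired analysis was possible because each line had a single ChIP library. The unknown depth limits what absence means, since a place without a peak may hold signal under the threshold.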
